A study of Citrullus lanatus with 6 samples.

Results

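The watermelon leaf count table held 19742 transcribed loci, of which 517 were unannotated models (with identifiers of the type Novel00508) that carried no protein description. The rule for these 517 models uses no response to drought, but it was set with earlier results of these data known. Only loci with a read in at least 1 library have a row among the counts. Of the other rows, 364 were unannotated models with a described protein and 18861 were ClCG genes, the annotated genes of the Charleston Gray reference genome. A further 142 unannotated entries of the FPKM table were at 0 in every library and had no row among the counts. The leaves came from cultivar Crimson Sweet, a red-fleshed dessert watermelon (Citrullus lanatus), in plants 89 days old, collected 8 days after the drought treatment began. Drought-stressed pots were kept at 35 ± 5% water content and control pots at 95 ± 5%, in the same soil-less medium with the same fertilizer. There were 3 drought-stressed and 3 control libraries, and the labels state that the sampled plants were independent, so that the spread between libraries is a spread between plants of 1 cultivar in 1 experiment.

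Loci of this kind are found wherever RNA reads pile up outside the genes an annotation already holds. In plants they are known to include long noncoding RNAs, small protein-coding genes that gene prediction passed over, remnants of transposable elements and pseudogenes, and untranslated ends or alternative starts of a neighboring gene. A transcript that is only an extension of its neighbor is read from the same promoter, whereas an independent locus can have regulation of its own, so position and response are usually examined together. No genome sequence was used here, and the coding potential of the models was not examined.

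Each library held 17907062 to 22351455 counts. Control library 2 stood apart from the other control libraries. Over the undescribed models that entered the test, log2 abundance in control library 2 correlated with that in control libraries 1 and 3 at r = 0.792 and 0.737, against 0.828 between control libraries 1 and 3 and 0.853 to 0.893 among the drought libraries (across 277 models, which are not independent replicates). The summed level of 8 chlorophyll a-b binding protein genes, the antenna proteins of leaf photosystems and here a check of the labeled tissue, was 9342, 6245 and 9690 CPM in the drought libraries, against 50440, 9663 and 37297 CPM in the control libraries. None of the 8 was at 0 in all 6 libraries. CPM relate counts to a library total scaled by the TMM method, so that libraries of different depth can be compared. A list of 16 extensin genes summed to 205, 172 and 177 CPM under drought, against 1090, 783 and 846 CPM in control. The 1 phloem gene had 51.1, 29.3 and 39.8 CPM, against 120, 80.8 and 179 CPM. The 3 pollen genes had 35.0, 15.3 and 26.6 CPM, against 204, 66.1 and 202 CPM. In the extensin, phloem and pollen lists control library 2 was lowest of the control libraries but above every drought library. For the chlorophyll a-b binding genes it was also lowest of the control libraries, but it lay below drought library 3 (9663 against 9690 CPM). No gene matched the list for the rubisco small chain. All lists were drawn from genes that the study itself called changed, so a drop under drought is not independent evidence. Whether control library 2 differs in the cells sampled or in RNA per cell cannot be told apart in bulk leaf tissue, and results that rest on it are given with and without it.

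The undescribed models were small and lay outside annotated genes, many of them close by. None of the 517 overlapped a ClCG gene, and neither did any of the described unannotated models, whereas 1200 ClCG genes (6.36%) overlapped another ClCG gene. The median gap to the nearest ClCG gene was 3242 bases, against 4305.5 bases for the described unannotated models and 2791 bases for ClCG genes from one another. In all, 140 models (27.1%) lay within 1000 bases of a ClCG gene, 162 (31.3%) lay at more than 1000 and up to 5000 bases and 215 (41.6%) lay farther off. Arrangement relative to the neighbor was near even, with 135 models downstream of it on the same strand, 127 upstream on the same strand, 139 tail to tail (3′ ends facing) and 116 head to head (5′ ends facing). Within 1000 bases the corresponding numbers were 35, 28, 44 and 33. The library kit named for the study does not mark strand. The deposited table nevertheless gives a strand to every model, including the 70 with no intron, for which no splice site can show it, and how those strands were set is not given in the sources used here.

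All chromosomes carried such models, with 36 on chromosome 11 to 58 on chromosome 3, and 18 on chromosome 0, which in this assembly holds sequence not placed on a chromosome. A total of 71 models had another unannotated model nearer than any ClCG gene. In 5 cases a pair of the 517 overlapped each other. Of these, Novel00267 with Novel00311, Novel00339 with Novel00379, Novel00799 with Novel00856 and Novel00810 with Novel00870 lay on opposite strands, where unstranded reads cannot be assigned, and Novel00878 lay within Novel00877 on the same strand over 1193 bases. The values of these 10 models are therefore uncertain.

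The genomic span of the models had a median of 1412 bases (232 to 40255), compared with 2268 bases for the described unannotated models and 3475 bases for ClCG genes. A total of 70 models (13.5%) had a span equal to their deposited gene length and thus no intron, and 362 (70.0%) had a span longer than that length. In the other 85 (16.4%) the deposited length exceeded the span, which no ClCG gene showed and which a transcript read from that span cannot do. The length that the deposited FPKM values imply (counts divided by FPKM and by the library total) gave another length. For 152 models (29.4%) the deposited length was 2 to 12 times the implied length, as a whole number within 0.5 base, and for the other 365 models the lengths were equal. Among described unannotated models 116 (31.9%) showed such a multiple, and among ClCG genes 0 did. By implied length the undescribed models had a median of 593 bases (204 to 4697), compared with 1133 bases for described unannotated models and 1420 bases for ClCG genes. They fell under 500 bases in 201 cases (38.9%), compared with 10.1% of ClCG genes. The implied length was never longer than the span, equaled it in 70 models and was shorter in 447. In the plot of span against deposited length, only models with a multiple lie above the line of equality. Below it lie models of both kinds, since 295 of the 362 with a span longer than the deposited length showed no multiple.

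**Figure D1:**
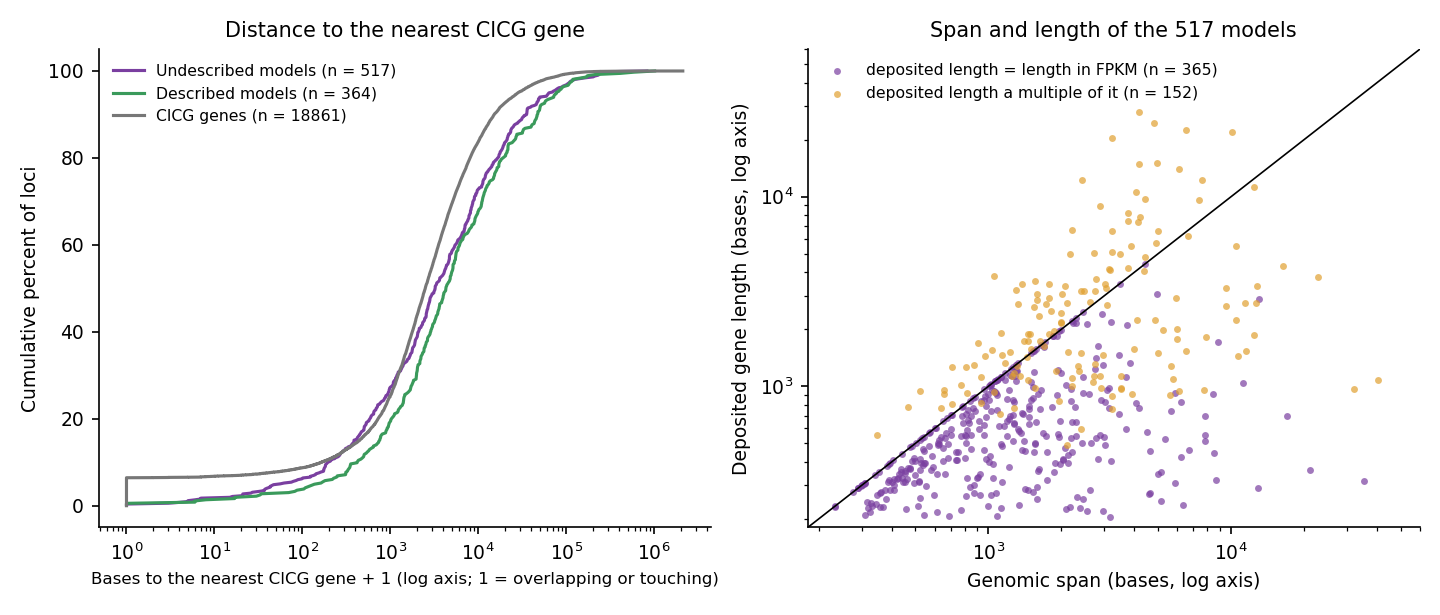
Left, cumulative percent of loci against the distance to the nearest ClCG gene in bases plus 1 (log axis) for the 517 undescribed models, 364 described unannotated models and 18861 ClCG genes; the ClCG curve starts at its overlapping genes while both curves of unannotated models start near 0. Right, deposited gene length against genomic span in bases (log axes) for the 517 models, with the line of equality; the 152 models whose deposited length is a multiple of the length implied by FPKM hold all points above the line.

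The 5 longest spans were set beside few reads. Novel00661 reached over 40255 bases of chromosome 7 (9267785 to 9308039, minus strand), although its implied length was 540 bases. It had 72, 51 and 56 counts in the drought libraries, against 56, 153 and 65 counts in the control libraries, a log2 fold change of -0.88 ± 0.46 (SE; edgeR adjusted p = 0.235). Its neighbor 3128 bases away, ClCG07G005870, encodes jasmonate ZIM-domain protein 2, of a family that represses jasmonate responses, and fell by 1.41 on the log2 scale (adjusted p = 0.0285). Novel00839, Novel00823 and Novel00986 spanned 35321, 32020 and 21078 bases but held at most 17 counts in any library and were not tested. Novel00318 spanned 22772 bases and had 134, 92 and 84 counts under drought, against 43, 45 and 78 in control, and changed by 0.58 ± 0.43 on the log2 scale (SE; adjusted p = 0.394).

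Most of the undescribed models were rarely read. Their median total over the 6 libraries was 69 counts, 79 models had 10 counts or fewer in all, and 261 had a count in every library. Models with at least 1 count numbered 387, 444 and 416 in the drought libraries, against 370, 396 and 371 in the control libraries. Those with 10 counts or more numbered 272, 297 and 274 under drought, against 242, 254 and 234 in control, so that the groups did not overlap on that measure. These counts are not scaled. Library totals were 21143377 to 22351455 counts under drought and 17907062 to 21852732 in control. Scaling factors by the TMM method were 1.06, 1.11 and 1.03 under drought, against 0.886, 1.15 and 0.812 in control. The part of depth and scaling in this difference was not tested, and no such number over all loci was set beside it. No drought library read 32 of the models, and no control library read 49 of them. Nearly all of these were too sparse for a test, since 0 of those 32 and 3 of those 49 passed the filter on low counts. Per length, the median level was 0.946 FPKM over all 517 models. Among those that passed the filter it was 2.28 FPKM, against 3.73 FPKM for described unannotated models and 11.9 FPKM for ClCG genes that passed.

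A few models held most of the reads. The 8 with the highest mean CPM took 57.2% of the 371134 counts on undescribed models, and 1 of them, Novel00114, took 25.5%. As a share of all counts, the 517 models had 0.247, 0.284 and 0.250% in the drought libraries, against 0.292, 0.530 and 0.199% in the control libraries. The mean share was 0.261 ± 0.0203% under drought and 0.341 ± 0.171% in control (SD, n = 3 each). The difference of -0.0800 percentage points was smaller than the spread of the control libraries (two-sided exact permutation test, p = 0.7, where 3 against 3 can reach no less than 0.10). Without control library 2 the difference was 0.0149 percentage points in the other direction. When the 8 most counted models were set aside, a measure added after the values were seen, the share was 0.141, 0.154 and 0.133% under drought, against 0.103, 0.124 and 0.0964% in control, and the groups did not overlap. These shares are of unscaled library totals, and no such share of other loci was set beside them.

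Of the 517 models, 277 (53.6%) had enough reads to be tested for a response to drought, compared with 83.7% of ClCG genes. In edgeR's quasi-likelihood test, with p adjusted by the Benjamini-Hochberg method over all 16318 loci tested, 26 of the 277 (9.39%) passed an adjusted p of 0.05. The background over all loci tested was 13.4%. Calls among the undescribed models were mostly of higher levels under drought, with 18 higher (6.50%, background 5.31%) and 8 lower (2.89%, background 8.08%). Without regard to the call, 53 models were higher in all 3 drought libraries than in any control library (19.1%, background 19.9%) and 23 were lower in all 3 (8.30%, background 18.5%). Their median log2 fold change was 0.23, and the 3 models at 0 in control left that median as it was when set at their lower bounds. Over all loci tested the median was -0.03. The log2 fold change was above 0 in 165 of the 277 (59.6%, background 48.5%). The difference between these shares and the background was not tested.

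The fold changes of these models were less precise than those of other loci. The median standard error of the log2 fold change was 0.66 for the 277 models, compared with 0.35 over all loci tested. In bins of mean CPM chosen after the values were seen, 10 of 159 models under 2 CPM were called (6.29%, compared with 5.04% of all loci in that bin), 8 of 77 at 2 to 10 CPM (10.4%, compared with 11.9%) and 8 of 41 at 10 CPM or more (19.5%, compared with 15.6%). Among the 240 models not tested, which had a median total of 18.5 counts, mean CPM was higher under drought in 116 and lower in 124. DESeq2 called 49 models, 33 higher and 16 lower under drought (background 25.2%), and all 26 were among them.

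The number of calls changed with the library left out. All 26 models kept their direction whichever library was left out, but 6, 4 and 6 models were called without drought library 1, 2 or 3, and 7, 45 and 29 without control library 1, 2 or 3. Of the 26, Novel00508, Novel00919, Novel00924 and Novel00930 were called in each of these 6 fits, and Novel00436 in all but the one without drought library 2. Leaving out a library also removes a residual degree of freedom. The share of all loci called in these fits was not set beside these counts, so they cannot be read as particular to these models.

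**Figure D2:**
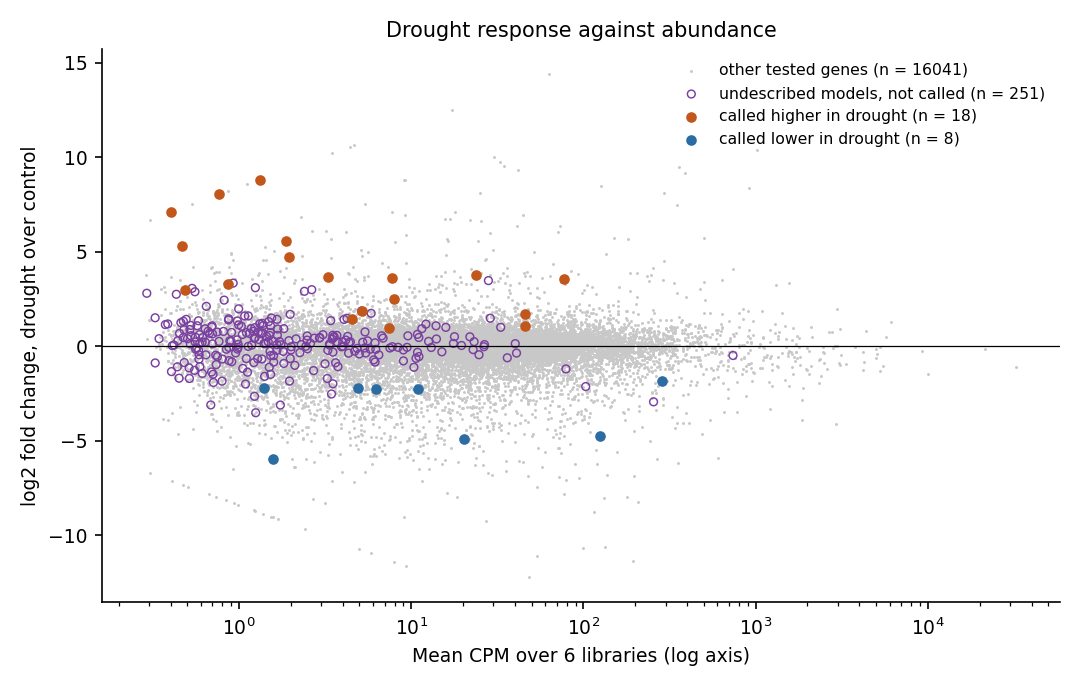
log2 fold change, drought over control, against mean CPM over the 6 libraries (log axis), one point per tested locus. The 18 models called higher in drought (orange) reach down to under 1 CPM, the 8 called lower (blue) include models above 100 CPM, and open purple circles are the 251 undescribed models not called.

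Novel00508 had the lowest adjusted p among the undescribed models. It lies on chromosome 5 (28561681 to 28565444, minus strand), 1775 bases tail to tail from ClCG05G016370. It had 1264, 962 and 874 counts in the drought libraries, against 68, 46 and 67 in the control libraries, so every drought library exceeded every control library many times over. Its mean was 44.2 ± 8.16 CPM under drought and 3.22 ± 0.857 CPM in control (SD, n = 3 each), a log2 fold change of 3.78 ± 0.30 (SE; edgeR adjusted p = 0.00349). Leaving out any 1 library gave log2 fold changes of 3.58 to 3.91.

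Novel00930, on chromosome 10 (23036024 to 23042217, minus strand), was the most abundant model called higher. It had 4604, 2179 and 3059 counts under drought, against 146, 322 and 223 in control, or 141 ± 53.6 CPM and 12.02 ± 3.92 CPM (SD, n = 3 each). The log2 fold change was 3.55 (adjusted p = 0.00498). It spanned 6194 bases with an implied length of 422 bases. Novel00891, farther along the same chromosome (23219610 to 23232072, plus strand) and named after its values were seen, also rose, with 1153, 1927 and 1252 counts under drought, against 456, 654 and 586 in control (log2 fold change 1.05, adjusted p = 0.0342, but up to 0.126 when any 1 drought library or control library 1 was left out).

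Novel00919 on chromosome 10 (12145624 to 12147836, minus strand) had 226, 559 and 227 counts under drought, against 23, 28 and 16 in control, or 3.60 ± 0.46 higher on the log2 scale (SE; adjusted p = 0.00693). Novel00924, on the same chromosome (18558625 to 18568202, minus strand), had 370, 332 and 245 counts under drought, against 35, 42 and 59 in control (log2 fold change 2.48 ± 0.34, SE; adjusted p = 0.00847; named after its values were seen). Novel00436 on chromosome 5 (28153247 to 28161033, plus strand) had 123, 227 and 84 counts under drought, against 5, 10 and 12 in control (log2 fold change 3.66 ± 0.56, SE; adjusted p = 0.0110, and 0.0525 without drought library 2). In these models the lowest drought library was above the highest control library by several times.

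Of the 18 models called higher, 3 had no read in any control library, so their fold changes are bounds set at 3 counts over the control group. They passed the filter on low counts through the drought libraries alone, and the other models with no control read were not tested. Novel00696 on chromosome 8 (7668538 to 7672703, plus strand) had 24, 41 and 114 counts under drought, against 0, 0 and 0 in control, and was at least 48.5-fold higher (adjusted p = 0.0251). Novel00375 on chromosome 4 (17602638 to 17618955, minus strand) had 11, 85 and 15 counts under drought, against 0, 0 and 0 in control, at least 30.1-fold higher (adjusted p = 0.0460). Drought library 2 held most of its reads. Novel00087 on chromosome 1 (13236711 to 13237731, plus strand), a model with no intron, had 20, 19 and 17 counts under drought, against 0, 0 and 0 in control, at least 15.2-fold higher (adjusted p = 0.0259). With the replicate number as a block its adjusted p was 0.0654. When any 1 drought library or control library 1 was left out none of the 3 was called, with adjusted p up to 0.0944, 0.137 and 0.119 in that order, and Novel00375 was also not called without control library 3.

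Novel00123 on chromosome 1 (15410823 to 15412150, minus strand) lay only 363 bases head to head from ClCG01G010270, which encodes BCL-2-associated athanogene 5, of a family of co-chaperones that bind Hsp70. It had 88, 68 and 98 counts under drought, against 0, 0 and 4 in control (log2 fold change 5.56, adjusted p = 0.0225). All its control reads were in control library 3, and without that library the fitted log2 fold change was 9.32, a value against libraries at 0 that depends on the prior count. Its neighbor rose as well, with 709, 754 and 570 counts under drought, against 271, 259 and 122 in control (log2 fold change 1.35, adjusted p = 0.0324). Novel00935 on chromosome 10 (26311249 to 26312830, minus strand) had 29, 17 and 18 counts under drought, against 1, 0 and 0 in control, which for the summed counts is a ratio of 52.0 (95% exact interval 9.003 to 2085, counting error only; edgeR adjusted p = 0.0237). Novel00518 on chromosome 5 (31343614 to 31345219, minus strand) had 81, 118 and 67 counts under drought, against 4, 4 and 0 in control (log2 fold change 4.71, adjusted p = 0.0172). No control library held 10 counts of Novel00123, Novel00935 or Novel00518, so they too passed the filter on low counts through the drought libraries alone. Their adjusted p rose to at most 0.1003, 0.104 and 0.0765 in that order when any 1 drought library or control library 1 was left out. Novel00651 on chromosome 7 (3169936 to 3181172, minus strand), among the 8 most abundant, had 1117, 1453 and 2266 counts under drought, against 268, 351 and 584 in control (log2 fold change 1.71, adjusted p = 0.0411, up to 0.141 without those same libraries).

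The other models called higher were Novel00994, Novel00803, Novel00719, Novel00563 and Novel00426, with log2 fold changes from 0.99 to 3.28. Novel00803, Novel00563 and Novel00426 had adjusted p of 0.0844, 0.0716 and 0.0801 with the replicate number as a block, and none of the 3 was called with no filter on low counts. Novel00563 and Novel00426 were not called with the size factors of DESeq2 (RLE scaling) either, nor was Novel00426 with library totals. All 5 lost the call when any 1 drought library or control library 1 was left out, with adjusted p up to 0.205. Novel00994, Novel00563 and Novel00426 lost it also without control library 3, and Novel00803 lost it whichever library was left out.

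**Figure D3:**
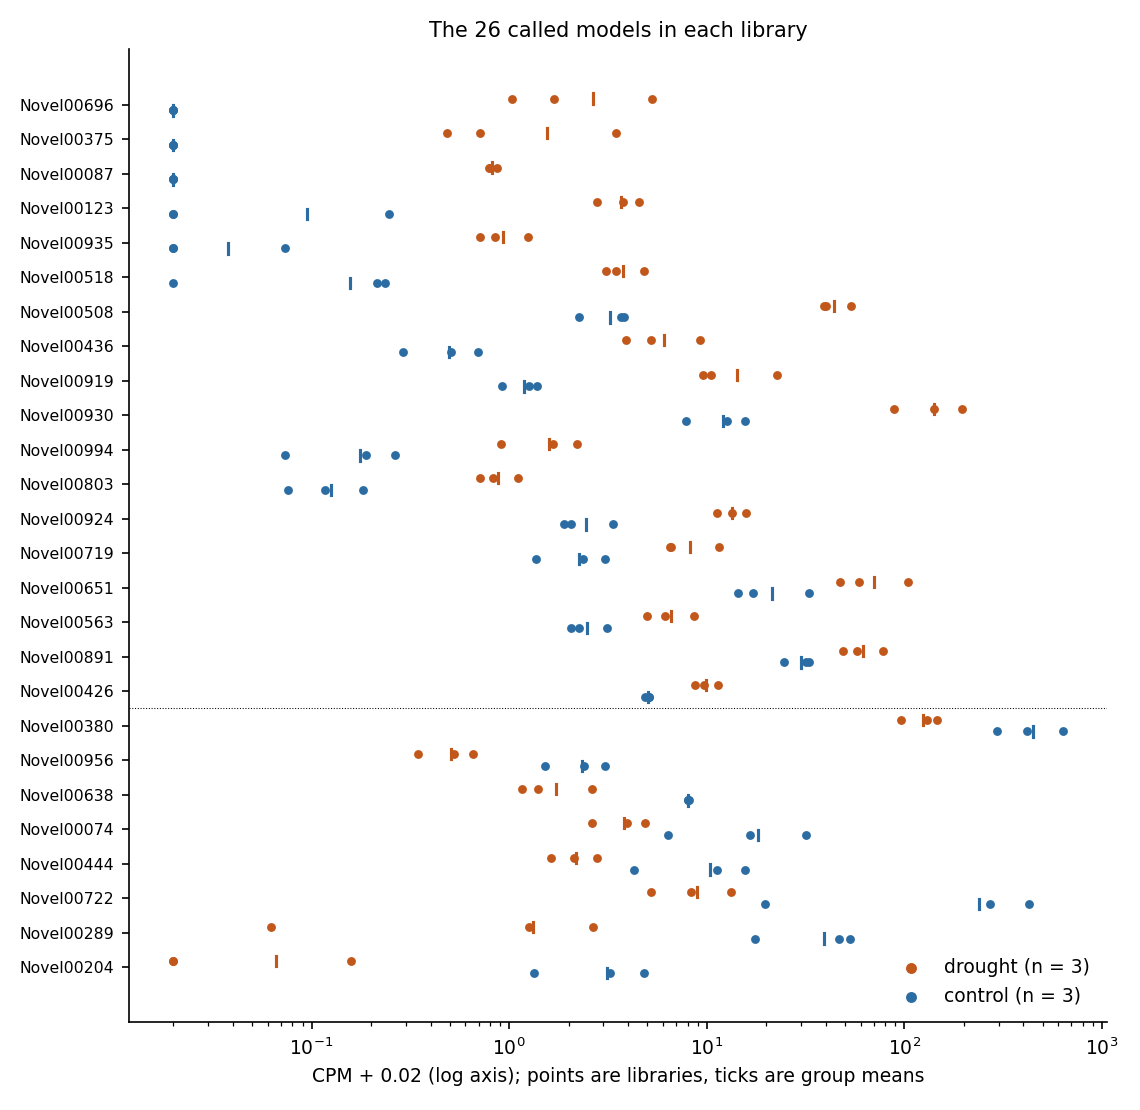
CPM plus 0.02 (log axis) of the 26 called models in each library, drought in orange and control in blue (n = 3 each), with ticks at the group means and the 18 models higher in drought above the dotted line. Each model's drought points lie to one side of its control points; points at the left edge are libraries with 0 counts.

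Among the 8 models that were lower under drought, the most abundant was Novel00380 on chromosome 4 (23095508 to 23097237, minus strand). It had 2258, 3224 and 3183 counts under drought, against 7743, 12982 and 5189 in control, or 124 ± 25.8 CPM and 446.5 ± 171 CPM (SD, n = 3 each). It fell by 1.85 on the log2 scale (SE 0.36, adjusted p = 0.0223, up to 0.0985 when any 1 drought library or control library 1 was left out). Its neighbor ClCG04G008150, 17183 bases away, had a log2 fold change of -0.10 (adjusted p = 0.804).

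Novel00722 on chromosome 8 (29221917 to 29223180, plus strand) fell by 4.75 on the log2 scale (adjusted p = 0.0306). It had 311, 128 and 181 counts under drought, against 7932, 407 and 4817 in control. Control library 2, in which the chlorophyll a-b binding genes were also lowest of the 3 control libraries, was still above every drought library in CPM. Without it the log2 fold change was -5.29 (adjusted p = 0.000805), without control library 1 it was -4.03, with the replicate number as a block it was -4.09, and it was not called when any library other than control library 2 was left out (adjusted p up to 0.124).

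Novel00204 on chromosome 2 (25524148 to 25528228, minus strand) had 0, 0 and 3 counts under drought, against 89, 27 and 57 in control, a ratio of control to drought of 71.0 for the summed counts (95% exact interval 23.9 to 347.6, counting error only; edgeR adjusted p = 0.0227). Novel00289 on chromosome 3 (3268749 to 3274848, minus strand) had 1, 65 and 27 counts under drought, against 985, 360 and 831 in control, and fell by 4.89 on the log2 scale (adjusted p = 0.0262). Its log2 fold change was -5.93 without drought library 2, which held most of its drought reads, and -4.32 without drought library 1. Its neighbor, ClCG03G002830, annotated as a 2-phosphoglycerate kinase-related protein and 11293 bases away, fell by 2.27 (adjusted p = 0.0235). The Novel00204 call was lost when any 1 drought library or control library 1 was left out (adjusted p up to 0.0856) and that of Novel00289 without drought library 2 or 3 or control library 1 (up to 0.117).

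Of the 8 falls, 3 lay within 1000 bases of a gene that was also lower in every drought library than in any control library. Of all loci tested, 18.5% were lower in this way, and the difference from that share was not tested. Novel00444 on chromosome 5 (35941849 to 35942353, plus strand), with no intron, ended 417 bases upstream of ClCG05G024370, a TCP family transcription factor-like gene, of a family that acts in leaf growth. It had 65, 52 and 35 counts under drought, against 290, 88 and 199 in control (log2 fold change -2.26, adjusted p = 0.0342), and the TCP gene fell by 2.54 on the log2 scale (adjusted p = 0.0251). Novel00638 on chromosome 7 (31190727 to 31191106, plus strand), also with no intron, lay 505 bases tail to tail from ClCG07G014760, a putative protein kinase gene. It had 27, 34 and 57 counts under drought, against 149, 165 and 143 in control (log2 fold change -2.23, adjusted p = 0.0183), and the kinase gene fell by 1.51 (adjusted p = 0.0400). Novel00956 on chromosome 11 (3956993 to 3958622, plus strand) began 20 bases past the end of ClCG11G003750, which encodes a pentatricopeptide repeat protein, of a family that processes organelle RNA. It had 15, 8 and 11 counts under drought, against 44, 31 and 54 in control (log2 fold change -2.23, adjusted p = 0.0431). Its call was lost with the replicate number as a block (adjusted p = 0.0666), with library totals (0.0582) and with no filter on low counts (0.0582). That neighbor had 4, 16 and 1 counts under drought, against 48, 47 and 61 in control (log2 fold change -3.22, adjusted p = 0.0507), so its groups did not overlap but it missed the threshold. Novel00444 and Novel00956 were called without control library 2 and lost the call when any other library was left out (adjusted p up to 0.135 and 0.164), and Novel00638 lost it without drought library 1 or 2 or control library 1 (up to 0.0810).

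The test of each model's ratio to its nearest ClCG gene asked whether it moved apart from that neighbor. It was run in limma on the difference of log2 CPM within each library, for the 232 models whose neighbor had also been tested. The ratio differed between drought and control for 21 models (9.05%, background 14.2% over 13846 loci paired in the same way). Relative to the neighbor 14 rose (background 6.77%) and 7 fell (background 7.45%). Only Novel00508 kept this call whichever library was left out, and 1 to 4 models had it without drought library 1, 2 or 3 or control library 1, against 40 and 26 without control library 2 or 3. No share over all paired loci was set beside these numbers. With a prior count of 0.5 in place of 2 the number was 15, and with the nearest gene on the same strand as neighbor it was 31 of 277.

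Novel00508 gained a log2 ratio of 3.50 ± 0.36 over ClCG05G016370 (SE; limma adjusted p = 0.00239), a gene that had 638, 594 and 584 counts under drought, against 375, 478 and 386 in control (log2 fold change 0.26, adjusted p = 0.374). Novel00518 gained 4.14 ± 0.69 over ClCG05G019130, only 592 bases away tail to tail (adjusted p = 0.00992, up to 0.0616 without drought library 2 or 3). That gene had 64, 40 and 47 counts under drought, against 35, 52 and 30 in control, and its groups overlapped. Novel00696 and Novel00919 gained 3.85 and 2.68 over their neighbors (adjusted p = 0.0189 and 0.0208), which lay 61715 and 7616 bases away. Even Novel00123, whose neighbor rose, gained 3.29 over it (adjusted p = 0.0459). These ratios, read with a prior count, understate the change of models at or near 0 in control.

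Novel00563 on chromosome 6 (27965071 to 27966607, plus strand) and its neighbor ClCG06G014520 had fold changes of opposite sign. The model had 203, 123 and 133 counts under drought, against 38, 46 and 55 in control, and ClCG06G014520, 2869 bases away tail to tail, had 59, 28 and 25 counts under drought, against 42, 149 and 67 in control (log2 fold change -1.47, adjusted p = 0.137). The ratio rose by 2.73 on the log2 scale (adjusted p = 0.0210). In the other direction, Novel00380 and Novel00204 lost 1.71 and 3.33 relative to their neighbors (log2 ratio changes of -1.71 and -3.33, adjusted p = 0.0253 and 0.0348). The ratio calls of Novel00696, Novel00919, Novel00123, Novel00563, Novel00380 and Novel00204 were lost when any 1 drought library or control library 1 was left out, with adjusted p up to 0.180, and that of Novel00204 also without control library 3.

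For Novel00354 and Novel00962 the ratio fell while the neighbor was far higher under drought. ClCG04G000250, which encodes a subunit of the CCAAT-binding factor NF-Y, had 2976, 5509 and 2740 counts under drought, against 198, 371 and 33 in control (log2 fold change 3.96, adjusted p = 0.0221). Novel00354, 2455 bases away on chromosome 4 (987593 to 990059, minus strand) and tail to tail with it, had 19, 16 and 15 counts under drought, against 7, 24 and 0 in control, and the ratio changed by -3.32 (adjusted p = 0.0187). ClCG11G006890 had 932, 1285 and 766 counts under drought, against 59, 77 and 10 in control (log2 fold change 4.07, adjusted p = 0.0111). Novel00962, 8533 bases upstream of it on chromosome 11 (7636233 to 7639746, plus strand), had 27, 55 and 38 counts under drought, against 10, 14 and 8 in control, and the ratio changed by -2.93 (adjusted p = 0.0370). Neither ratio was called when any 1 drought library or control library 1 was left out, with adjusted p up to 0.0899 and 0.130, and that of Novel00962 was not called without control library 3 either.

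As a description over loci, 145 of the 232 models (62.5%) had a fold change of the same sign as their nearest ClCG gene, against 53.8% of all 13846 pairs. Pearson's r between the fold changes of model and neighbor was 0.318 and Spearman's rho 0.286 (n = 232 pairs from the same 6 libraries), against 0.147 and 0.120 for ClCG genes. The sign was shared by 39 of 66 models within 1000 bases (59.1%), 54 of 84 at more than 1000 and up to 5000 bases (64.3%) and 52 of 82 beyond (63.4%), and r was 0.283, 0.308 and 0.346 in these classes. By arrangement, r was 0.659 for 51 models head to head with the neighbor, 0.349 for 53 downstream on its strand, 0.299 for 59 upstream on its strand and 0.0955 for 69 tail to tail. Within 1000 bases these values were 0.703 (n = 16), 0.629 (n = 11), 0.778 (n = 15) and -0.242 (n = 24). No difference between these values was tested, and the arrangements rest on deposited strands from a kit that does not mark strand.

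Of the 24 called models whose neighbor had been tested, 19 had a fold change of the same sign as the neighbor, to be read against 62.5% of all 232 models. In 4 of these the neighbor was itself called, all in the direction of the model (Novel00123, Novel00289, Novel00444 and Novel00638, given above with their neighbors). Of all 32 models whose neighbor was called, 20 shared its sign (62.5%), against 59.9% for ClCG genes.

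**Figure D4:**
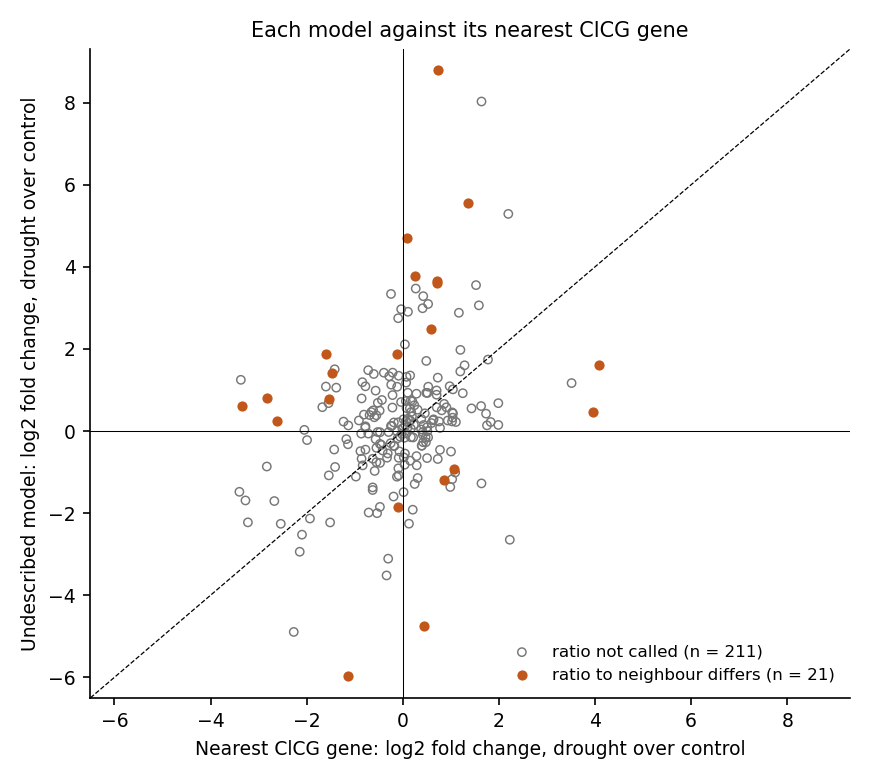
log2 fold change, drought over control, of each undescribed model against that of its nearest ClCG gene, for 232 pairs, with the line of equal change dashed. Filled points are the 21 models whose ratio to the neighbor differed; they include models whose neighbor lay near 0, such as Novel00508 at 3.78 against 0.26, and models of opposite sign to the neighbor, such as Novel00563 at 1.42 against -1.47.

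Calls were found at every distance from a gene. Among models tested, 6 of 74 within 1000 bases were called (3 higher and 3 lower), 7 of 97 at more than 1000 and up to 5000 bases (5 higher and 2 lower) and 13 of 106 farther away (10 higher and 3 lower). The median log2 fold change in these classes was 0.13, 0.21 and 0.44. Models with no intron gave 5 calls among 46 tested, those with a span longer than the deposited length 14 among 168, and those with a deposited length over the span 7 among 63. All of these shares can be read against the background of 13.4% over all loci.

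Of the 5 models farthest from any ClCG gene, 4 were read often enough to be tested, and 0 passed the edgeR threshold (1 had an unadjusted p under 0.05, and DESeq2 called 1, in both cases Novel00848, at a DESeq2 adjusted p of 0.0304). Novel00259, 238953 bases from its neighbor on chromosome 3 (16250243 to 16253488, plus strand), had 768, 1233 and 970 counts under drought, against 158, 95 and 575 in control, and its groups did not overlap (log2 fold change 1.48 ± 0.67, SE; adjusted p = 0.179). Without control library 3 its log2 fold change was 2.69 and passed the threshold. Novel00848, 237642 bases away on chromosome 9 (21798098 to 21798907, minus strand), had 47, 25 and 25 counts under drought, against 9, 1 and 4 in control (log2 fold change 2.44 ± 0.83, SE; adjusted p = 0.0953). Novel00701 and Novel00027 overlapped between groups, with log2 fold changes of 0.09 and -0.22. Novel00030, at 828399 bases the farthest of all, lies on chromosome 0, where distance runs over joined pieces, and had at most 9 counts in a library.

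Of the 8 most abundant models, 4 did not pass the edgeR test, although DESeq2 called 3 of them, Novel00073, Novel00144 and Novel00712 (DESeq2 adjusted p = 0.00761, 0.00267 and 0.00941). Novel00114 on chromosome 1 (5271245 to 5272515, minus strand) had 12606, 18366 and 12304 counts under drought, against 11646, 34364 and 5202 in control, with a log2 fold change of -0.49 (adjusted p = 0.623) that became 0.42 without control library 2. Novel00144 on chromosome 2 (2470299 to 2481713, plus strand) had 631, 2099 and 1411 counts under drought, against 4337, 21421 and 1441 in control (log2 fold change -2.94, adjusted p = 0.0813), and its log2 fold change was -1.41 without control library 2 and -3.45, past the threshold, without control library 3. In both models control library 2 held the highest value of the 6.

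Novel00712 on chromosome 8 (19297684 to 19298289, plus strand) showed the opposite pattern in that library. It had 978, 699 and 981 counts under drought, against 4945, 620 and 3679 in control (log2 fold change -2.13, adjusted p = 0.0884). This model with no intron lies 2473 bases downstream, on the same strand, of ClCG08G006910, which encodes a chlorophyll a-b binding protein. That gene had 24725, 16465 and 25962 counts under drought, against 105101, 11646 and 86518 in control (log2 fold change -1.93, adjusted p = 0.152). The model and the gene were thus low in the same control library, and their ratio changed by only -0.25 ± 0.26 (SE; adjusted p = 0.574). Without control library 2 the model fell by 2.62 and passed the threshold.

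On chromosome 1, 3 undescribed models lay beyond the 3′ end of ClCG01G004960, annotated as a putative nitric-oxide synthase and listed by the study among its genes of citrulline and arginine metabolism. ClCG01G004960 (5240548 to 5248670, plus strand) had 108, 134 and 129 CPM under drought, against 84.2, 48.9 and 73.1 CPM in control, and its groups did not overlap (log2 fold change 0.85, adjusted p = 0.0699). Novel00073 (5249643 to 5250802, plus strand) begins 972 bases past its end and had 1113, 843 and 1359 counts under drought, against 2698, 2322 and 1293 in control. In CPM this was 47.9 ± 14.2 under drought and 110.3 ± 36.2 in control (SD, n = 3 each), again with no overlap (log2 fold change -1.203 ± 0.33, SE; adjusted p = 0.0565, past the threshold without control library 2 or 3).

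The model and the gene on the same strand thus had fold changes of opposite sign, neither past the threshold in edgeR, while DESeq2 called Novel00073 (log2 fold change -1.22, DESeq2 adjusted p = 0.00761). The paper itself reported induction of ClCG01G004960 from these libraries. Its methods name a DESeq p-value under 0.05, whereas the threshold here is on adjusted p. The unadjusted p of ClCG01G004960 in edgeR was 0.0124. The ratio of Novel00073 to that gene changed by -2.07 ± 0.41 (SE; limma adjusted p = 0.0192, up to 0.0813 when any 1 drought library or control library 1 was left out). Novel00074 (5256207 to 5262335, plus strand) followed, with 93, 64 and 106 counts under drought, against 308, 650 and 113 in control (log2 fold change -2.26, adjusted p = 0.0465). That call rests on the choice of fit, since adjusted p was 0.0778 with the replicate number as a block, 0.0721 with library totals and up to 0.155 when any 1 drought library or control library 1 was left out. Without control library 2 it stayed called at a log2 fold change of -1.59. The gene after it, ClCG01G004970, was level, at 57.6 ± 3.25 CPM under drought and 52.7 ± 1.36 CPM in control (SD, n = 3 each; log2 fold change 0.13, adjusted p = 0.636). Novel00114 and ClCG01G004980 closed the stretch, and both had groups that overlapped.

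**Figure D5:**
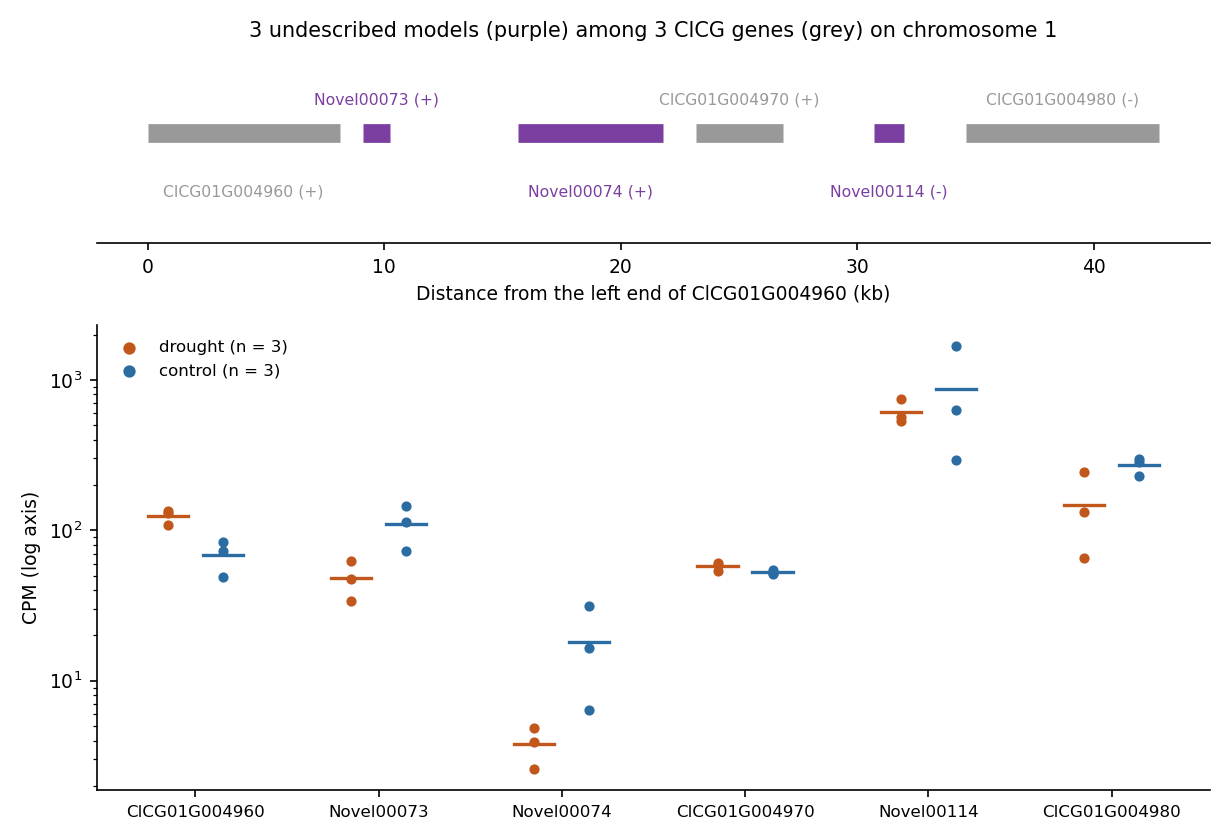
Top, the stretch of chromosome 1 with 3 undescribed models (purple) and 3 ClCG genes (gray), in kb from the left end of ClCG01G004960, strands in brackets. Bottom, CPM of the 6 loci in each library (log axis), drought in orange left of control in blue (n = 3 each) with lines at the means; ClCG01G004960 is higher and Novel00073 and Novel00074 are lower in all drought libraries, while Novel00114 overlaps.

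Besides Novel00073, the models within 5000 bases of a gene of citrulline metabolism listed by the study were Novel00957 and Novel00946. Novel00957 on chromosome 11 (4076643 to 4078748, plus strand) lies 707 bases downstream of ClCG11G003830, an arginine decarboxylase gene whose enzyme makes agmatine for polyamines. It had 4, 8 and 0 counts under drought, against 13, 0 and 3 in control, too few to test, and the decarboxylase gene had a log2 fold change of 0.66 (adjusted p = 0.133). Novel00946 on chromosome 10 (35730246 to 35730928, minus strand), within 5000 bases of ClCG10G020940, had 138, 125 and 75 counts under drought, against 50, 93 and 89 in control, with groups that overlapped (log2 fold change 0.23, adjusted p = 0.722).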

How the data were processed

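Leaf RNA of 3 drought-stressed and 3 control plants was sequenced by the authors as paired-end reads from libraries of a kit that does not mark strand. The deposited counts are whole numbers of reads per gene model on the Charleston Gray genome, and the deposited FPKM are those counts per length and per library total. The paper names TopHat and HTSeq, whereas the submitters' processing notes name fastp, HISAT2 2.1.0, featureCounts and DESeq2. How the unannotated models were assembled is not given in the sources used here. The deposited start, end, length and strand were used as given. Columns of the authors' fold changes, p-values and normalized counts were not used.

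The models and gene lists were chosen with earlier results of these data known. The nearest ClCG gene was the one with the smallest gap on the same chromosome, on either strand. Descriptions of neighbors were read from the study's lists of called genes, and genes absent from them are named only. Counts passing filterByExpr (minimum count 10, minimum total 15) were tested with edgeR 4.0.16 (R 4.3.3) after TMM scaling, on both groups with no covariate and with adjusted p over all tested loci. The ratio to the neighbor was tested in limma 3.58.1 with an abundance trend, on log2 CPM with a prior count of 2. DESeq2 1.42.0 was an alternative. Both tests were also run on simulated counts. These had independent loci, no outlying library and a lower dispersion than these data (common dispersion 0.172), so that run does not cover such features.

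Models named were the 8 largest changes in each direction among calls with groups that do not overlap, the 8 most abundant, the 5 farthest from a ClCG gene, the 5 longest spans, up to 5 in each direction by ratio p, and those within 5000 bases of a citrulline metabolism gene. Same-numbered libraries deviated together from their group means (r = 0.148, 0.430 and 0.130 across genes for numbers 1 to 3), so the replicate number was taken as a pairing and entered as a block in an alternative fit, although the labels state no shared origin and drought library 1 correlated more with control library 3 (r = 0.303). Libraries within a group differed by more than counting noise (chi-square per degree of freedom at least 37.7).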

Additional observations from a re-analysis of the deposited data

How the results depend on the processing

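The 26 calls kept their direction under all 11 alternatives. Counts within 1.5 times the main ones came from RLE scaling (25), library totals (26), no filter (25) and the replicate block (23, of which 20 were shared). Library totals moved the median of all loci by 0.166 on the log2 scale, a shift to be set against any value under that scaling. DESeq2 called 49 models (33 higher and 16 lower in drought), and groups did not overlap for 76 (53 higher and 23 lower). Leaving out 1 library gave 4 to 45 calls, 4 to 26 higher and 0 to 19 lower. The cause of these differences was not tested. Each fit that left out a library has 5 libraries, and no share over all loci was set beside its calls.

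The ratio to the neighbor differed for 15 to 22 models with another prior count and for 20 without a trend. It differed for 27 with the replicate block, which kept each ratio call named above, and for 31 with the nearest tested gene on the same strand, of which 22 rose. Leaving out 1 library gave 1 to 40, with 1 to 26 rising and 0 to 14 falling, again with no share over all loci beside them. The share of models with the sign of their neighbor ranged from 59.1 to 64.7% over its alternatives. The difference in share of counts ranged from -0.151 to 0.0149 percentage points when 1 library was left out, the highest without control library 2.

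Among named models that were not called, 5 had a log2 fold change that crossed 0 when 1 library was left out. Novel00114 ranged from -0.91 to 0.42 (highest without control library 2), Novel00027 from -0.46 to 0.39 (highest without control library 3) and Novel00354 from -0.12 to 1.88 (lowest without control library 3). Novel00946 ranged from -0.00110 to 0.42 (lowest without control library 1). Novel00701 ranged from -0.33 to 0.88, at -0.12 without drought library 1, -0.33 without control library 1 and -0.04 without control library 3. With library totals Novel00027 was at 0.0139. Beyond the values given above, the block changed no call among the named models. With 3 libraries a group and few reads on most models, the 240 untested models and low-count fold changes remain undetermined at this depth.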
